A study of Mus musculus with 56 samples.

Results

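TRBV12-1 and TRBV12-2 are mouse T cell receptor beta variable genes, and the receptors described here are those of liver tumour T cells that carried either of them. They were taken from assembled receptor contigs of 15 single-cell T cell receptor libraries. Barcodes called as cells were counted as T cells where they held a beta chain contig marked productive and of high confidence, and of several such contigs the one with most molecular identifiers (UMIs) was kept. Its V gene had to be named as exactly TRBV12-1 or exactly TRBV12-2. These criteria gave 878 of 7605 T cells, 496 with TRBV12-1 and 382 with TRBV12-2. They made up 581 of 5005 clonotypes, 262 and 319, where the cells of a clonotype share V gene, J gene and every CDR3 nucleotide within a library.

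The libraries came from nodules of hepatocellular carcinoma dissociated from the livers of 14 mice, and the mouse is the replicate. Every tumour genotype included MYC with an antigen construct, either luc, which is luciferase, or lucOS, which is luciferase joined to model T cell antigens. In NICD tumours the partner was the intracellular domain of NOTCH1, and in sgp53 tumours it was a guide RNA (sgp53) that targets p53, a tumour suppressor. Each of the 4 female groups had 3 mice, with NICD tumours that carried luc or lucOS and sgp53 tumours that carried luc or lucOS, and 2 male mice had lucOS NICD tumours. By their titles, lucOS sgp53 female replicates 3 and 4 are libraries of 1 mouse and were averaged. Age and strain of these mice are not stated for the libraries used here. CD45 positive and CD45 negative cells had been recombined in equal parts, so shares are given within T cells and say nothing of how many T cells a tumour held. The smallest library had 49 T cells and the largest 1282, and median UMIs of the kept beta contig ran from 6 to 14. Across libraries, 39 cell barcodes occurred more than once, and 0 of them shared a clonotype of either V gene.

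A beta chain is built in the thymus by joining 1 V, 1 D and 1 J segment, with bases trimmed and added at the joints, and the joint forms the CDR3 loop that touches the peptide. The finished beta chain then pairs with an alpha chain of TRAV and TRAJ segments, and daughters of 1 T cell keep both chains, so that cells with the same nucleotide CDR3 are counted as 1 clone. In older names TRBV12-1 is Vβ5.2 and TRBV12-2 is Vβ5.1. The Vβ5 genes are best known from the ovalbumin-specific transgenic receptors OT-I and OT-II, which join a Vβ5 beta chain to a Vα2 alpha chain (TRAV14). In the RefSeq annotation of GRCm38.p6, the assembly known as mm10, Trbv12-1 (gene 100124672) lies on chromosome 6 from 41113567 to 41114067. Trbv12-2 (gene 100124674) lies on chromosome 6 from 41118864 to 41119364, with Trbv13-1 between the pair. A further copy, Trbv12-3, is annotated as a pseudogene, and 0 contigs named it.

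The CDR3 of both V genes began with the same bases, so the 2 genes are told apart by the V region before the CDR3. Over all clonotypes of each gene, the most common base at each of the first 16 positions gave these starts, shown because the marking of the clones below rests on them.
TRBV12-1: tgtgccagctctctcg
TRBV12-2: tgtgccagctctctcg
The whole start was kept in 22.5% of the TRBV12-1 clonotypes and in 22.9% of those of TRBV12-2, and trimming at the joint can remove its last bases. Another 1406 T cells carried the joint entry TRBV12-2+TRBV13-2, which the criteria leave out. Their start is different.
TRBV12-2+TRBV13-2: tgtgccagcggtga
Of the 591 clonotypes of the joint entry, 485 (82.1%) began with the first 12 bases of the TRBV13-2 start and 0 with those of TRBV12-1 or TRBV12-2. In contrast, 261 of 319 TRBV12-2 clonotypes (81.8%) began with the first 12 bases of the start given above.

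The largest clones, those of 5 or more cells in a library, are printed with bases that match the V start or the most common J end in lower case and the unmatched bases of the joint in capitals. They are shown because they hold 226 of the 496 TRBV12-1 cells (45.6%) and 57 of the 382 TRBV12-2 cells (14.9%).
TRBV12-1 with TRBJ2-7, 127 cells, lucOS sgp53 female replicate 2: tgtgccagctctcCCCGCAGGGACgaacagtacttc
TRBV12-1 with TRBJ2-2, 25 cells and 14 cells, lucOS sgp53 female replicates 3 and 4: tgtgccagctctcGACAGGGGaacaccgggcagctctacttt
TRBV12-1 with TRBJ2-2, 18 cells, lucOS NICD male replicate 1: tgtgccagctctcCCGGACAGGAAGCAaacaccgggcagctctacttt
TRBV12-1 with TRBJ1-2, 17 cells, lucOS NICD male replicate 2: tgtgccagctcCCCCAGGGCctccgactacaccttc
TRBV12-1 with TRBJ2-4, 14 cells, lucOS NICD female replicate 1: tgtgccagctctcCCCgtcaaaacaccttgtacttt
TRBV12-1 with TRBJ2-2, 11 cells, lucOS NICD female replicate 3: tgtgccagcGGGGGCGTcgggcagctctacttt
TRBV12-2 with TRBJ2-7, 24 cells, luc sgp53 female replicate 3: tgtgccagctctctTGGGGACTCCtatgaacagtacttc
TRBV12-2 with TRBJ2-1, 7 cells, luc sgp53 female replicate 1: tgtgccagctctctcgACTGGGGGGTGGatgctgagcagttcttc
TRBV12-2 with TRBJ2-5, 7 cells, lucOS NICD male replicate 2: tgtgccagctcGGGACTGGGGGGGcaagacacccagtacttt
TRBV12-2 with TRBJ1-1, 7 cells, lucOS NICD male replicate 2: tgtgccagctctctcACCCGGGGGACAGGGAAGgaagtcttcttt
TRBV12-2 with TRBJ2-1, 6 cells, lucOS sgp53 female replicate 1: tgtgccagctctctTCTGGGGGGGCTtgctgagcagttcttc
TRBV12-2 with TRBJ2-5, 6 cells, lucOS sgp53 female replicate 3: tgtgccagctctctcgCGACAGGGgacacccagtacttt

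The large clones of the 2 V genes are given here by construct, beside those of the other receptors. All 7 TRBV12-1 clones of this size, counting the clone of the mouse with 2 libraries in each library, came from lucOS tumours, where 172 TRBV12-1 clonotypes were seen. In luc tumours 87 of 90 TRBV12-1 clonotypes were single cells, and the other 3 had 2 cells each. TRBV12-2 had 2 large clones in luc tumours, the largest with 24 cells, and 4 in lucOS tumours, none above 7 cells. For comparison, T cells with neither V gene had 11 large clones among 1640 clonotypes in luc tumours and 116 among 2784 in lucOS tumours. Large clones of the other receptors thus also numbered more in the lucOS libraries. Per clonotype, the TRBV12-1 counts of 7 among 172 and 0 among 90 were close to those of the other receptors. By cells, large clones held 56.1% of TRBV12-1 cells in lucOS tumours, with the 127-cell clone among them, against 38.1% of other T cells. In luc tumours they held 0% against 5.73%. These counts are descriptions without a test.

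**Figure D1:**
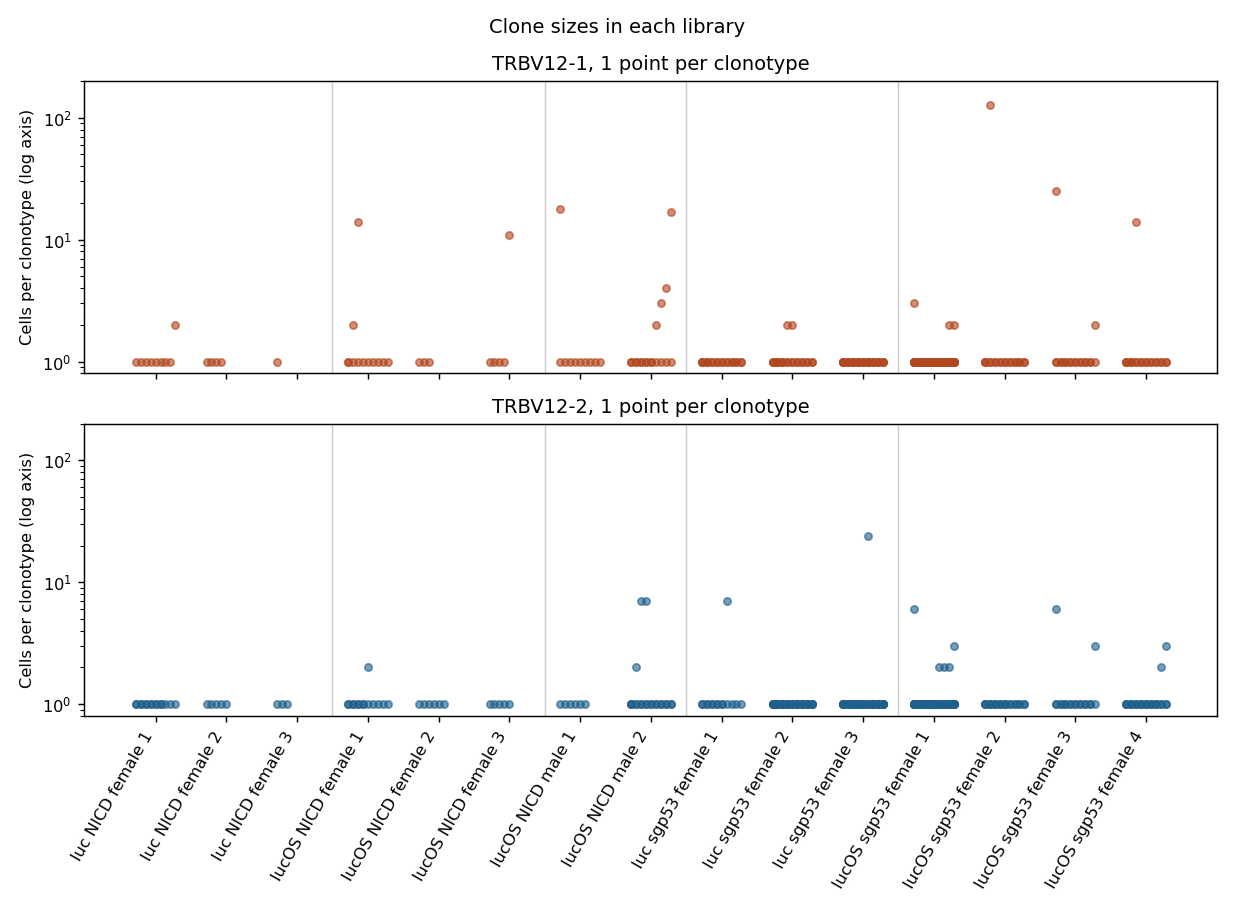
Cells per clonotype (log axis) for TRBV12-1 (top) and TRBV12-2 (bottom) in each of the 15 libraries, with 1 point per clonotype and grey lines between groups. The point at 127 cells is the TRBV12-1 clone of lucOS sgp53 female replicate 2, and no TRBV12-1 clone of a luc library passes 2 cells.

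The TRBV12-1 clone of 127 cells was the largest clone of its library and held 15.3% of its T cells and 87.0% of its TRBV12-1 cells. Of its 127 cells, 85 had an alpha chain, and all of those carried the same one, TRAV9D-3 with TRAJ17. The 14-cell clone of lucOS NICD female replicate 1 also used TRAV9D-3, in 8 of 8 cells with an alpha chain, but with TRAJ49 and another CDR3. These alpha CDR3 sequences are shown, without marking, because the same alpha V gene stood beside TRBV12-1 in large clones of 2 mice with different tumour genotypes.
TRAV9D-3 with TRAJ17, 85 cells, lucOS sgp53 female replicate 2: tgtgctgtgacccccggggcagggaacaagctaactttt
TRAV9D-3 with TRAJ49, 8 cells, lucOS NICD female replicate 1: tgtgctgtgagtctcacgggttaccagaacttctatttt
Among all TRBV12-1 cells, 103 carried TRAV9D-3, in 12 clonotypes of 6 mice, 10 of them with that alpha chain in 1 cell each. TRAV9D-3 was not particular to TRBV12-1, since 8 TRBV12-2 cells in 8 clonotypes of 4 mice carried it. The whole TRAV9 family averaged 8.53% of cells with an alpha chain but without TRBV12-1 (11 mice). Whether TRAV9D-3 is more frequent with TRBV12-1 was not tested.

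The clone with 25 cells in lucOS sgp53 female replicate 3 was found again with 14 cells in replicate 4, the other library of the same mouse. It carried a pair of productive alpha chains, TRAV3-3 with TRAJ11 and TRAV5-4 with TRAJ15. In replicate 3 each was found in 22 of the 25 cells and both in 21, and in replicate 4 the counts were 10, 13 and 10 of 14 cells. No other T cell of either library had them as its alpha chain with most UMIs, and further alpha chains of other cells were not searched. Of the remaining large TRBV12-1 clones, that of 17 cells used TRAV6-4 in 14 and that of 11 cells TRAV13N-1 in all 11. In the 18-cell clone of the first male only 6 cells had an alpha chain, TRAV6-6 in 5 of them, with TRAV14N-3 and TRAV16N in 1 cell each. The cell with TRAV14N-3 also held TRAV6-6.

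Among the TRBV12-2 clones, the 24-cell clone of luc sgp53 female replicate 3 was the largest clone of its library and carried TRAV13N-1 with TRAJ32 in 16 cells. TRAV3D-3 was found in all 7 cells of the luc sgp53 female replicate 1 clone, TRAV13-1 in all 7 cells of the TRBJ1-1 clone of the second male, and TRAV7D-2 in all 6 cells of the clone of lucOS sgp53 female replicate 3. A pair of TRBV12-2 clones held mixed alpha chains, more so than the 18-cell TRBV12-1 clone, where most cells with an alpha chain shared TRAV6-6. The TRBJ2-5 clone of the second male had TRAV3D-3 in 3 cells and TRAV16D-DV11 in 3, with 1 cell holding both. The 6 cells of lucOS sgp53 female replicate 1 had TRAV6N-6, TRAV14-2 and TRAV6-7-DV9 in 1 cell each. This TRAV14-2 chain was also found in 10 other T cells of that library, so it may not belong to the clone, which was not tested. Cells that share a beta chain but not an alpha chain need not descend from 1 mature T cell.

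As shares of T cells, TRBV12-1 and TRBV12-2 stood in the middle of the beta V entries. TRBV12-1 averaged 5.58% ± 3.72 (SD, n = 14 mice) and ranked 6 of the 20 beta V entries with a mean of at least 1%, between TRBV13-1 (6.49% ± 1.75) and TRBV1 (5.44% ± 3.07). TRBV12-2 averaged 4.98% ± 2.43 and ranked 9, between TRBV16 (5.32% ± 3.26) and TRBV5 (4.54% ± 1.57). Each difference to a neighbour was smaller than the spread between mice. With each clonotype counted once, TRBV12-1 ranked 11 (4.59% ± 1.54) and TRBV12-2 ranked 7 (5.86% ± 1.77). TRBV12-1 exceeded TRBV12-2 in 6 of 14 mice, and the mean difference of 0.60 percentage points was not called (two-sided sign-flip permutation test within mice, p = 0.735, adjusted p = 0.764 over 2 tests of the pair). It turned to -0.50 without lucOS sgp53 female replicate 2. By clonotypes TRBV12-2 was the higher one, by a difference of -1.27 (permutation p = 0.0205, adjusted p = 0.041).

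TRBV12-1 lay between 1.99% and 6.32% in 13 of the 14 mice and was far higher in 1. Its share was 3.50%, 5.19% and 2.04% of T cells in the luc NICD mice and 4.98%, 4.17% and 4.78% in the luc sgp53 mice. The lucOS NICD females had 6.02%, 1.99% and 5.60%, and the lucOS NICD males had 4.85% and 6.32%. The lucOS sgp53 mice had 5.30%, 17.6% and 5.76%. The value of 17.6%, 146 of 828 T cells (95% Wilson interval 15.2% to 20.4%), belongs to the mouse with the 127-cell clone. By clonotypes the same mouse stood at 6.35%, within the range of its group (5.68% to 7.17%). All intervals cover counting error only.

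The lucOS and luc shares of TRBV12-1 differed by 2.94 percentage points (7.05% ± 5.40 against 4.11% ± 1.19, SD, n = 6 female mice each), and this was not called. An exact permutation test within tumour types gave p = 0.135, and Benjamini-Hochberg adjustment over the 20 V entries gave 0.367. Within NICD tumours the groups overlapped (0.96 points, exact permutation p = 0.6). Within sgp53 tumours every lucOS mouse was above every luc mouse (4.92 points, exact permutation p = 0.1, the smallest that 3 against 3 allows). Without lucOS sgp53 female replicate 2 the difference over both tumour types was 0.92 points. It was 0.29 points by clonotypes (exact permutation p = 0.665), and -0.62 points when the largest clone of each V gene was left out of every library.

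TRBV12-2 had the lower mean in lucOS tumours, though the difference missed the adjusted threshold. Its share was 5.24%, 6.49% and 6.12% in the luc NICD mice and 5.22%, 7.35% and 10.7% in the luc sgp53 mice. The lucOS NICD females had 3.47%, 3.97% and 1.87%, the males 1.08% and 5.53%, and the lucOS sgp53 mice 5.77%, 2.78% and 4.17%. The luc and lucOS NICD females did not overlap, while in sgp53 tumours 1 lucOS mouse lay above the lowest luc mouse. The mean over female mice was 3.67% ± 1.33 with lucOS against 6.86% ± 2.05 with luc (SD, n = 6 each), a difference of -3.18 percentage points.

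This difference of TRBV12-2 had an exact permutation p of 0.01 and did not pass adjustment over the 20 entries (adjusted p = 0.0667). It was -2.85 points within NICD tumours (exact permutation p = 0.1) and -3.52 points within sgp53 tumours (exact permutation p = 0.2). With each clonotype counted once the difference was -1.13 points (exact permutation p = 0.145). Counting the cells of the joint entry as TRBV12-2 turned it to 9.45 points. The joint entry by itself differed by 12.6 points, and 0 of its 591 clonotypes began with the first 12 bases of the TRBV12-2 start. Among T cells with neither V gene, the share in clones of 2 or more cells ran from 0% to 33.0% in luc libraries. In lucOS libraries it ran from 23.9% to 66.5%, so the ranges overlap. The luc libraries held 49 to 691 T cells and the lucOS libraries 151 to 1282, and small libraries show fewer repeated clones. The part of clone or library size in the lower TRBV12-2 share was not tested. Over all 20 entries, 0% were called in this comparison, with 4 at an unadjusted exact permutation p under 0.05, TRBV12-2 among them. TRBV5 (-2.48 points) and TRBV13-2 (-1.56 points) were also lower with lucOS, each at an exact permutation p of 0.005, and the joint entry was higher. A lower lucOS share was thus not particular to TRBV12-2. The smallest p that the 400 relabelings allow is 0.005, here and in the exact permutation tests of tumour type and interaction. A single entry at that p would not pass adjustment over the 20 entries. An entry that was not called is therefore not shown to be equal between groups.

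**Figure D2:**
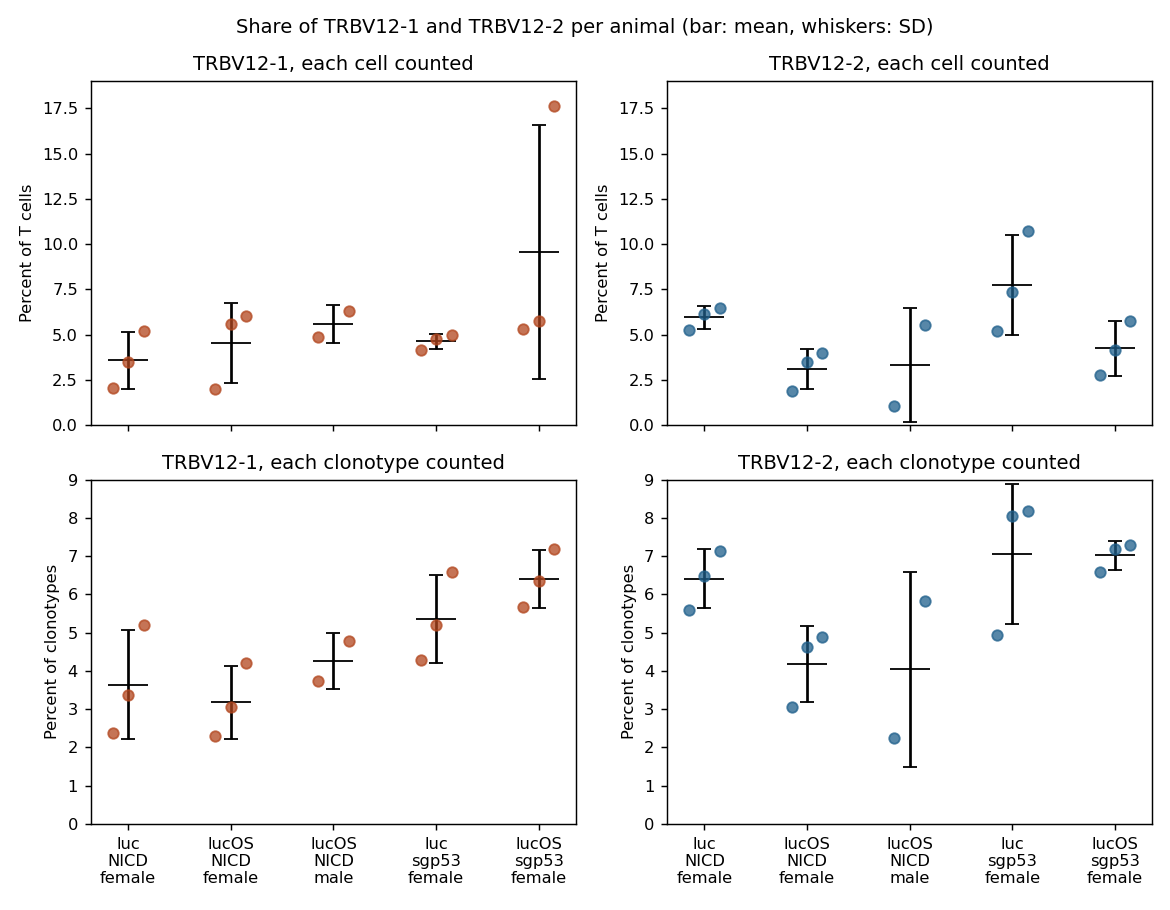
Share of TRBV12-1 (left) and TRBV12-2 (right) per mouse, as percent of T cells (top) and as percent of clonotypes (bottom), for the 5 groups. Points are mice, bars are group means and whiskers are the SD. The TRBV12-1 point at 17.6% of T cells is 6.35% of clonotypes, and the lucOS NICD females lie below the luc NICD mice for TRBV12-2.

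Neither V gene was called different between tumour types per cell. NICD females had 4.06% ± 1.80 TRBV12-1 and sgp53 females 7.10% ± 5.19, a difference of -3.05 points (SD, n = 6 each, exact permutation p = 0.15, adjusted p = 0.378). Without lucOS sgp53 female replicate 2 it was -1.03 points. TRBV12-2 stood at 4.53% ± 1.76 in NICD and 6.00% ± 2.77 in sgp53 tumours (-1.47 points, exact permutation p = 0.145, adjusted p = 0.378), and the difference was -0.73 points without luc sgp53 female replicate 3. By clonotypes both V genes were lower in NICD tumours, TRBV12-1 with 3.41% ± 1.11 against 5.88% ± 1.04 (-2.46 points, exact permutation p = 0.01) and TRBV12-2 with 5.30% ± 1.46 against 7.04% ± 1.19 (-1.74 points, exact permutation p = 0.04). Neither passed adjustment over the entries (exact permutation, adjusted p = 0.0667 and 0.2).

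Whether the construct difference itself depended on tumour type could not be shown. The interaction was -3.97 points for TRBV12-1 (exact permutation p = 0.585, adjusted p = 0.9) and 0.67 points for TRBV12-2 (exact permutation p = 0.785, adjusted p = 0.963). It turned to 0.07 points for TRBV12-1 without lucOS sgp53 female replicate 2. For TRBV12-2 it was -0.81 points at the lowest, with the sign changed without luc sgp53 female replicate 3 or lucOS sgp53 female replicate 2. Of the 20 entries 0% were called for tumour type, with 1 at an unadjusted p under 0.05, and 0% for the interaction, with 2 (exact permutation tests). In lucOS NICD tumours the males had 1.05 points more TRBV12-1 than the females (exact permutation p = 0.8) and 0.20 points more TRBV12-2 (exact permutation p = 1), where 2 against 3 mice cannot go below 0.1. Both signs turned with 1 mouse left out, TRBV12-1 to -0.22 without lucOS NICD female replicate 2 and TRBV12-2 to between -2.03 and 2.43 points, negative without lucOS NICD female replicate 3 or male replicate 2.

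TRBV12-2 cells sat mostly outside clones. In mice with at least 5 cells of the V gene, 13.1% ± 16.5 of TRBV12-2 cells were in clones of 2 or more cells against 34.8% ± 21.5 of all T cells of the same mice without that V gene, called the other T cells in each test within mice (SD, n = 13), lower in 10 mice and higher in 2. In lucOS libraries with at least 5 TRBV12-2 cells the share was 0% in lucOS NICD female replicates 2 and 3, male replicate 1 and lucOS sgp53 female replicate 2. It was 13.3% in lucOS NICD female replicate 1, 45.7% in the second male, and 20.3%, 34.6% and 16.7% in lucOS sgp53 female replicates 1, 3 and 4. In luc mice it was 0% in 3, 33.3% in luc sgp53 female replicate 1 and 32.4% in luc sgp53 female replicate 3, where the 24-cell clone sat.

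The difference of -21.7 percentage points had a sign-flip permutation p of 0.00879 and did not pass adjustment over 8 tests (adjusted p = 0.0703). Without luc sgp53 female replicate 3 it was -25.4 points and passed (permutation, adjusted p = 0.0156). TRBV12-1 showed no such gap, with 41.0% ± 32.1 against 38.0% ± 18.5 (SD, n = 11 mice, difference 3.02 points, permutation p = 0.627, adjusted p = 0.727). Its values ran from 0% in luc sgp53 female replicates 1 and 3 to 87.0% in lucOS sgp53 female replicate 2. The direct difference between the V genes was 25.5 points in 11 mice with at least 5 cells of each, higher for TRBV12-1 in 8 (permutation p = 0.0674). So the 2 genes were not shown to differ in this measure.

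**Figure D3:**
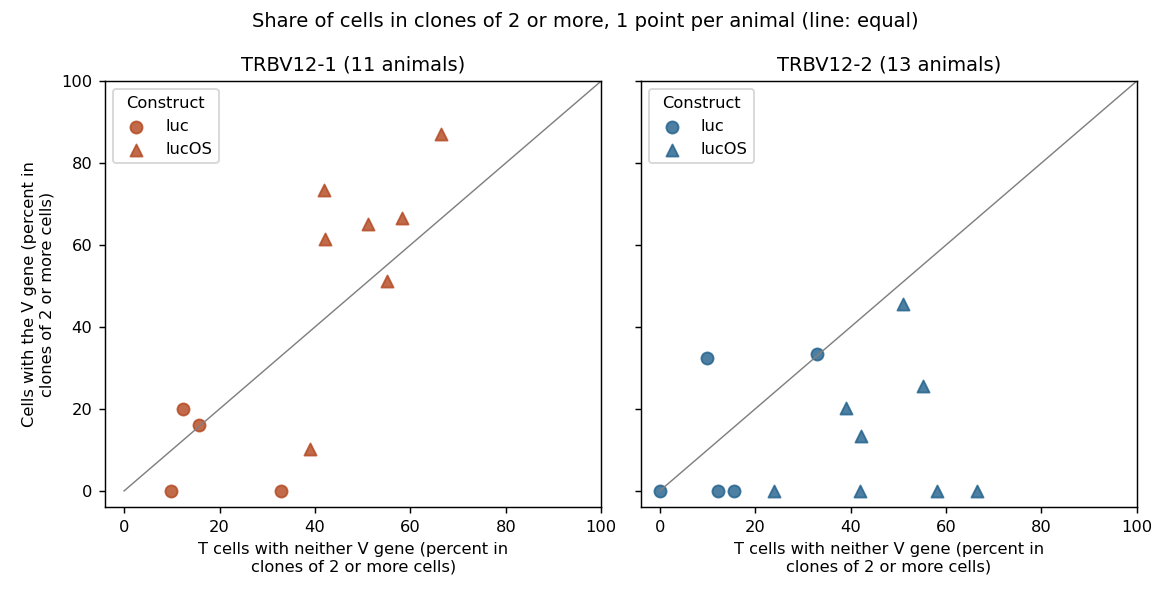
Percent of cells in clones of 2 or more cells among cells with TRBV12-1 (left, 11 mice) or TRBV12-2 (right, 13 mice) against the same percent among T cells with neither V gene, 1 point per mouse, circles for luc and triangles for lucOS. The line marks equal values, and most TRBV12-2 points lie below it.

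When the cells of both V genes were pooled, the gap in expanded share to the other T cells was not shown to differ between constructs (-3.15 points between lucOS and luc, 11 female mice, exact permutation p = 0.73, adjusted p = 0.73). Its sign was not stable, with values from -7.77 to 2.07 points when 1 mouse was left out. The sign turned without luc sgp53 female replicate 3, lucOS NICD female replicate 2 or lucOS sgp53 female replicate 1.

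The J segment joined to the V gene differed from the other T cells of the same mice for several TRBJ genes when cells were counted. Of the 12 TRBJ genes, 5 were lower with TRBV12-1 (41.7%) and 1 with TRBV12-2 (8.33%), and none was called higher (sign-flip permutation tests, Benjamini-Hochberg over 24 tests). TRBJ2-5 made up 6.63% of TRBV12-1 cells against 14.7% of the others (-8.07 points, n = 11 mice, lower in 9, permutation p = 0.00586, adjusted p = 0.0391). TRBJ1-3 was at 0% in 6 of the 11 mice and at most 4.41% in the rest, against 1.19% to 8.38% in the other T cells. Its mean was 1.10% against 4.16% (-3.06 points, lower in 11 of 11 mice, permutation p = 0.000977, the smallest that 11 mice allow, adjusted p = 0.0234). TRBJ2-3 (-3.48 points), TRBJ1-1 (-3.61) and TRBJ1-5 (-2.14) also passed, each at a permutation adjusted p of 0.0391, and with TRBJ1-3 were named after their values had been seen. TRBV12-1 cells numbered 10 to 146 per mouse, so a value of 0% says little in the mice with few cells.

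These J differences rest on counting cells. With each clonotype counted once 0 of 24 passed, TRBJ1-3 having -2.44 points (permutation adjusted p = 0.0996). TRBJ1-3 held when each mouse was left out in turn. TRBJ1-5 lost its call without any of 10 mice, namely luc NICD female replicate 1, luc sgp53 female replicates 1 and 3, lucOS NICD female replicates 1 and 3, both males and lucOS sgp53 female replicates 1, 2 and 3. TRBJ1-1 lost it without the same mice other than the second male. TRBJ2-5 lost it without those mice other than lucOS sgp53 female replicate 1, and TRBJ2-3 without those other than lucOS NICD female replicate 1 and lucOS sgp53 female replicate 1. The permutation adjusted p was then 0.0563 to 0.0781. Each difference stayed negative, and a mouse fewer also raises the smallest p the test can reach.

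The largest positive differences of TRBV12-1 did not pass, and each had its top value in a mouse with a large clone of that J gene. TRBJ2-2 averaged 20.5% against 5.39% (permutation p = 0.242, adjusted p = 0.484). It ranged from 0% to 73.3%, with the top value in lucOS NICD female replicate 3, and was higher in 5 of 11 mice. TRBJ1-2 averaged 10.97% against 4.51% (permutation p = 0.121, adjusted p = 0.363), with 47.5% in the second male, and the difference of 6.46 points was 2.73 without that mouse. Counted as clonotypes over all libraries, TRBJ2-2 made up 16 of 262 (6.11%) and TRBJ1-2 22 of 262 (8.40%).

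With TRBV12-2, TRBJ1-4 was lower, 2.29% against 6.65% (-4.36 points, n = 13 mice, lower in 11, permutation p = 0.00903, adjusted p = 0.0391). It was at 0% in 7 mice and highest, at 8.70%, in lucOS sgp53 female replicate 2. TRBV12-2 cells numbered 5 to 74 per mouse. Some mice at 0% had only 5 or 6 such cells, where 0% says little, so the count of lower mice carries little weight. The TRBJ1-4 call was lost (permutation adjusted p 0.0563 to 0.0781) without any of 12 mice, that is, every mouse of the test other than lucOS sgp53 female replicate 2. By clonotypes the permutation adjusted p was 0.0996. TRBJ2-5 (17.0% against 13.9%, adjusted p = 0.66) and TRBJ2-1 (14.9% against 11.9%, adjusted p = 0.691) were not called by the same permutation test. The sign of TRBJ2-1 turned to -0.26 points without lucOS NICD male replicate 1. Over all clonotypes, genes of the second TRBJ cluster served 72.1% of TRBV12-1, 72.1% of TRBV12-2 and 67.1% of other clonotypes.

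**Figure D4:**
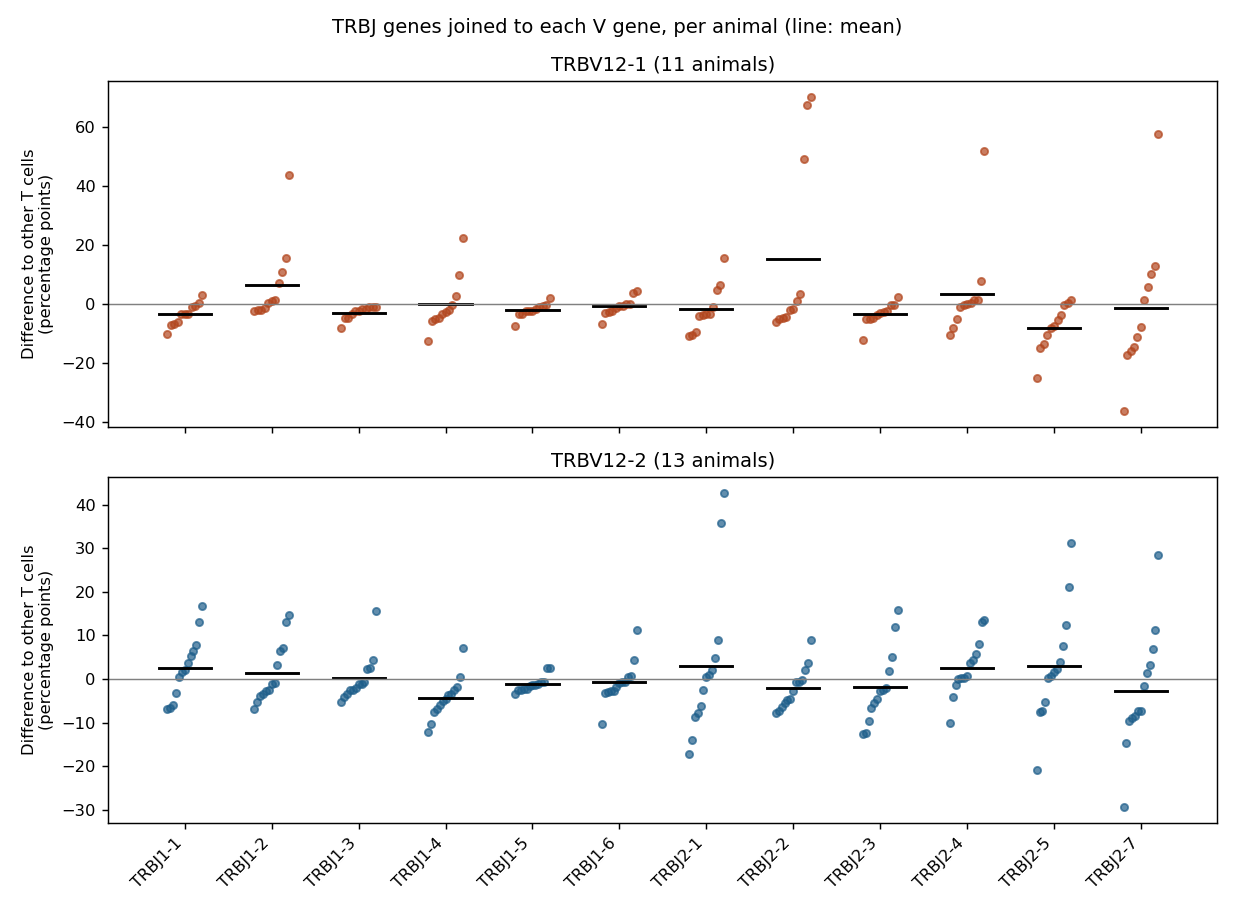
Difference in the share of each TRBJ gene, in percentage points, between cells with TRBV12-1 (top, 11 mice) or TRBV12-2 (bottom, 13 mice) and the other T cells of the same mouse, 1 point per mouse with a line at the mean. TRBJ1-3 of TRBV12-1 lies below 0 in every mouse, while the mean of TRBJ2-2 is raised by a few mice.

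Alpha chains of invariant T cells were rare beside both V genes. Invariant natural killer T (NKT) cells recognise lipids on CD1d with a TRAV11 alpha chain joined to TRAJ18, and mucosal-associated invariant T (MAIT) cells recognise vitamin B metabolites on MR1 with TRAV1 joined to TRAJ33. In both, the beta chain comes from a restricted set of V genes. TRAV11 was found in 0 of 385 TRBV12-1 cells with an alpha chain, in 1 of 290 TRBV12-2 cells (0.345%), and in 133 of 5374 other T cells (2.47%). TRAV11 joined to TRAJ18 made up 0, 1 and 126 of these, and TRAV1 joined to TRAJ33 was found in 0, 1 and 127 cells. If cells were independent, 0 of 385 would allow a share of up to 0.779%. Cells of 1 clone are not independent, and the 385 cells were 218 clonotypes, so the data allow a higher share than that.

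Within mice, TRAV11 stood at 0% for TRBV12-1 in all 11 mice against 0.775% to 4.54% of the other T cells (-2.39 points, permutation p = 0.000977, adjusted p = 0.0293 over 30 tests). For TRBV12-2 it was 0.207% against 2.53% (-2.33 points, n = 11 mice, lower in 10, permutation p = 0.00391, adjusted p = 0.0293). Both calls held by clonotypes, at the same adjusted p. They missed the threshold, at a permutation adjusted p of 0.0586, without any one of luc sgp53 female replicates 1 and 2, either male or lucOS sgp53 female replicate 1, and for TRBV12-2 also without luc sgp53 female replicate 3 or lucOS NICD female replicate 2. With each mouse left out in turn, the differences stayed at -2.55 to -2.17 points for TRBV12-1 and -2.66 to -2.09 for TRBV12-2. Leaving out a mouse of the test raises the smallest p it can reach. Cells with an alpha chain numbered 9 to 102 per mouse for TRBV12-1 and 5 to 59 for TRBV12-2. In mice with few such cells, 0% says little against a TRAV11 share of a few percent. The number of mice with a lower value therefore carries little weight, and the same limit applies to TRAV1 and TRAV8 below. The permutation p of TRAV11 with TRBV12-1 was at most 0.00195 in every setting. Counting the joint entry, whose CDR3 starts are those of TRBV13-2, as TRBV12-2 turned its TRAV11 difference to 3.83 points (permutation adjusted p = 0.0308), and with at least 10 cells per mouse it was -1.86 points (permutation adjusted p = 0.156).

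TRAV1 was lower with TRBV12-1, 0.09% against 2.77% (-2.68 points, lower in 10 of 11 mice, permutation p = 0.00195, adjusted p = 0.0293), as was TRAV8, named after its values had been seen, with 1.83% against 6.39% (-4.56 points, lower in 10 of 11, adjusted p = 0.0293). Neither passed by clonotypes (permutation adjusted p = 0.352 and 0.545). TRAV1 lost its call without the same 5 mice as TRAV11 of TRBV12-1, and TRAV8 also without lucOS NICD female replicate 3 or lucOS sgp53 female replicate 3, each at 0.0586. With each mouse left out in turn, TRAV1 stayed at -2.95 to -1.90 points and TRAV8 at -5.30 to -3.66 points. With TRBV12-2, TRAV1 was 1.29% against 3.84% and not called (permutation adjusted p = 0.537). Without lucOS sgp53 female replicate 2 it passed (permutation adjusted p = 0.0293). In all, 3 of 15 TRAV families were called with TRBV12-1 (20%) and 1 of 15 with TRBV12-2 (6.67%), each lower.

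TRAV14, the Vα2 family that joins Vβ5 in the ovalbumin receptors, was not called different beside either V gene. It made up 7.71% of TRBV12-1 cells against 9.85% of the others (permutation p = 0.395, adjusted p = 0.667) and 7.49% of TRBV12-2 cells against 10.1% (permutation p = 0.283, adjusted p = 0.584), each over 11 mice. Counting clonotypes turned the TRBV12-1 difference from -2.14 to 1.45 points, and it was still not called. Over all libraries TRAV14 was found in 28 TRBV12-1 cells (7.27% of those with an alpha chain), in 24 TRBV12-2 cells (8.28%) and in 634 other T cells (11.8%).

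Between constructs, the share of TRAV14 among cells of both V genes was 16.7% and 33.3% in luc NICD female replicates 1 and 2, and 6.90%, 3.64% and 9.20% in the luc sgp53 mice. It was 3.45%, 0% and 7.14% in the lucOS NICD females, and 11.9%, 2.54% and 8.28% in the lucOS sgp53 mice. The lucOS values were lower by a mean of -10.2 points, which was not called (11 female mice, exact permutation p = 0.08, adjusted p = 0.16). The NICD groups did not overlap, with means of 25% for luc and 3.53% for lucOS. The sgp53 groups did, with means of 6.58% and 7.56%, so that the lower lucOS mean came from the NICD tumours. Without luc NICD female replicate 2, the mouse at 33.3%, with 6 cells of either V gene that had an alpha chain, the difference was -6.08 points (exact permutation p = 0.2).

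The families with the largest mean differences in either V gene, other than those above, were not called. With TRBV12-1, TRAV9 averaged 18.3% against 8.53% (permutation adjusted p = 0.667), with a median of 5.56%. The top values were 86.3% in lucOS sgp53 female replicate 2 and 63.2% in lucOS NICD female replicate 1, the mice of the large TRAV9D-3 clones, and without the former the difference was 3.76 points in place of 9.80. TRAV6 averaged 16.1% against 9.77% (permutation adjusted p = 0.584). TRAV13 averaged 14.99% against 8.88% (permutation adjusted p = 0.746), with 84.6% in lucOS NICD female replicate 3, and the sign turned to -0.62 points without that mouse. With TRBV12-2, TRAV13 averaged 17.9% against 8.18% (higher in 8 of 11 mice, permutation p = 0.0469, adjusted p = 0.243). It was 35.6% in luc sgp53 female replicate 3, 40% in lucOS NICD female replicate 2, where 5 cells had an alpha chain, and 35.7% in the second male. TRAV7 averaged 15.9% against 10.1% (permutation adjusted p = 0.584) and TRAV6, with a lower mean, 6.38% against 10.7% (lower in 9 of 11 mice, permutation adjusted p = 0.243).

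**Figure D5:**
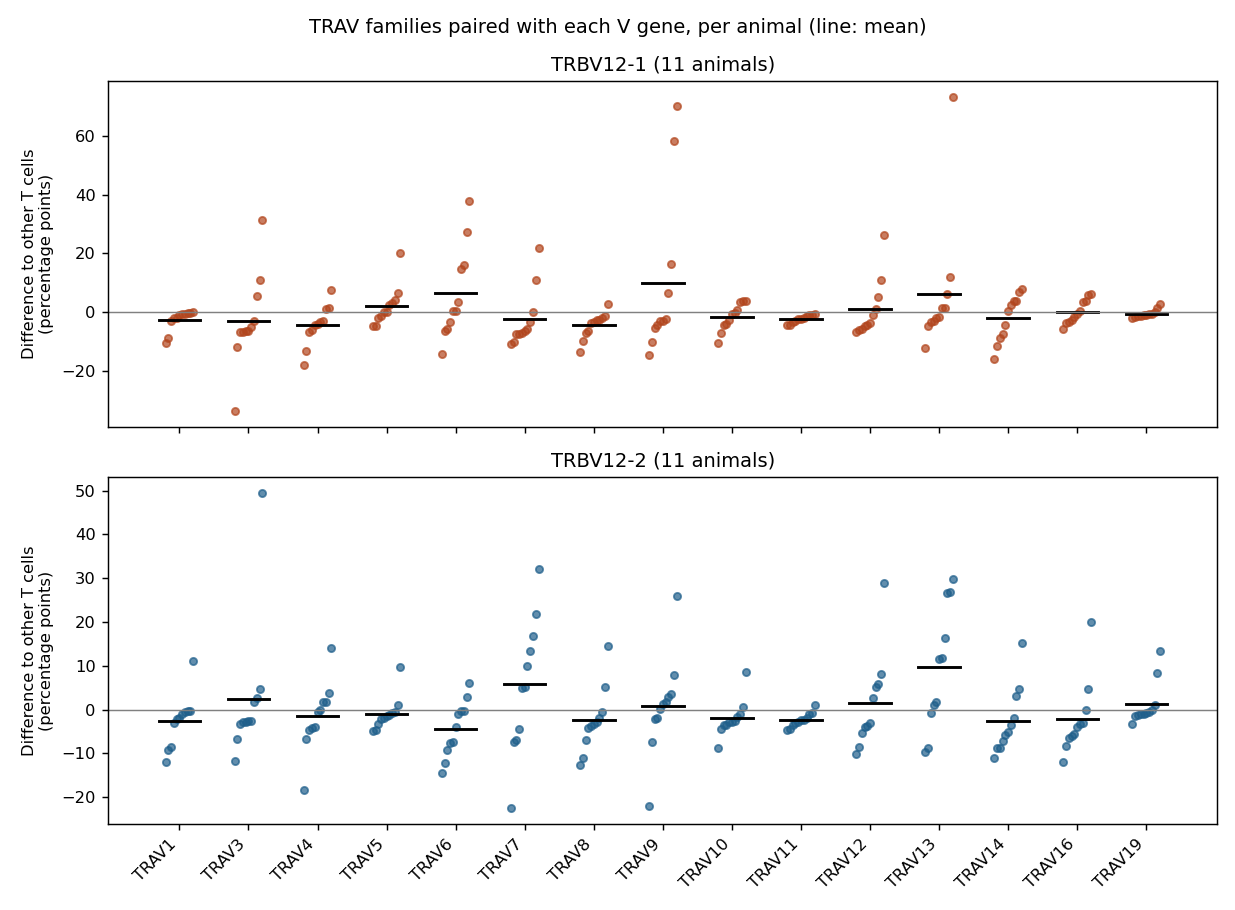
Difference in the share of each TRAV family, in percentage points, between cells with TRBV12-1 (top) or TRBV12-2 (bottom) that had an alpha chain and the other T cells of the same mouse, 11 mice each, 1 point per mouse with a line at the mean. TRAV11 of TRBV12-1 lies below 0 in every mouse, since 0 of the TRBV12-1 cells carried it. The TRBV12-1 points lie far above 0 in 2 mice for TRAV9 and in 1 for TRAV13.

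The length of the CDR3 was not called different from that of the other receptors. Over clonotypes the median was 42 bases for TRBV12-1, TRBV12-2 and other T cells. Within mice the mean length was 41.3 bases for TRBV12-1 against 41.6 (difference -0.32, permutation adjusted p = 0.727) and 41.2 for TRBV12-2 against 41.6 (-0.40, permutation adjusted p = 0.414). The V genes differed by -0.10 bases in 11 mice (permutation p = 0.764, adjusted p = 0.764), and this sign turned to 0.25 without lucOS NICD female replicate 1. The bases of the joint that matched neither the V start nor the J end numbered 10.4 ± 3.86 per TRBV12-1 clonotype, 10.4 ± 4.37 per TRBV12-2 clonotype and 11.05 ± 3.92 per other clonotype (SD over clonotypes, which share mice). An alpha chain was found in 77.9% of TRBV12-1 cells and 70.3% of TRBV12-2 cells, and neither this (permutation adjusted p = 0.937 and 0.189) nor the UMI number (0.727 for both) was called different from the other T cells.

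Few CDR3s recurred between mice. Of 255 combinations of V gene, J gene and encoded CDR3 with TRBV12-1, 5 (1.96%) were found in 2 mice, and of 311 with TRBV12-2, 6 (1.93%). Among the other receptors 68 of 4248 (1.6%) were found in more than 1 mouse, the most widespread in 6. Each of the 11 recurrent combinations of TRBV12-1 or TRBV12-2 was in 2 cells, 1 per mouse. Only 1 kept the same bases, a TRBV12-1 clonotype with TRBJ2-1 in lucOS NICD female replicate 3 and lucOS sgp53 female replicate 4. The others encoded the same loop with different bases at the joint, as in this TRBV12-2 pair with TRBJ1-3.
TRBV12-1 with TRBJ2-1, both mice: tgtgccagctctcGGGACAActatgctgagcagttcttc
TRBV12-2 with TRBJ1-3, first version: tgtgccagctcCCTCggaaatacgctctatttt
TRBV12-2 with TRBJ1-3, second version: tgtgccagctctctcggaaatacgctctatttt
The second version holds 0 unmatched bases, since the V start runs straight into the J end, and the versions came from luc sgp53 female replicate 2 and lucOS sgp53 female replicate 1. In the mouse with 2 libraries, 2 of 19 and 21 TRBV12-1 clonotypes and 2 of 19 and 27 TRBV12-2 clonotypes were in both.

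Across the 14 mice no other V entry followed TRBV12-1 closely by cells. The highest Spearman correlations of its share were with TRBV15 (0.31), the joint entry TRBV12-2+TRBV13-2 (0.23) and TRBV14 (0.16). TRBV12-2 was closest to TRBV2 (0.66), TRBV5 (0.50) and TRBV13-2 (0.47). By clonotypes both were nearest to TRBV14 (0.69 for TRBV12-1 and 0.54 for TRBV12-2), and TRBV12-1 and TRBV12-2 were related to each other at 0.49. These are descriptions over mice that share groups and a fixed total of 100%.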

How the data were processed

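The authors' deposited contig tables give, per the file headers, each contig's V, J, CDR3 nucleotides, read counts and UMI counts. Cell Ranger, Seurat and the mm10 build are listed in the submitters' processing notes without versions. How joint V entries were assigned is not given in the sources used here. The contig length column, in bases, is as deposited and was not tested.

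Members were selected and counted as in the opening of the report, with no UMI minimum. V gene shares were compared over mice by exact permutation of the construct or tumour type labels within the other factor, with Benjamini-Hochberg adjustment over the 20 V entries whose mean share reached 1%. TRBJ, TRAV and other measures of cells with a V gene were compared with the T cells of the same mouse without it, by sign-flip permutation over mice with at least 5 such cells. All tests are two-sided, and an adjusted p below 0.05 was called. Alternatives were a 3-UMI minimum, barcodes with several chains left out, joint entries included, clonotypes counted once, libraries under 100 T cells left out, at least 10 cells per mouse, clones of 5 or more cells, the libraries of 1 mouse pooled and each mouse left out. The tests were run on simulated data first. Named were the 3 TRBJ genes and 3 TRAV families per V gene with the largest mean difference, TRAV14, TRAV11 and TRAV1, clones of 5 or more cells (at most 10 per gene), recurrent CDR3s and the 3 V entries most alike. The members and lists were chosen with earlier results of these data known. Wilson intervals are at 95%, and the limit for a count of 0 is 3 counts. Replicate numbers follow sample order and pair nothing. Mice were told apart by the animal numbers in the sample titles, and nothing states that their tumours were processed on separate days. Gene expression libraries and bulk samples of the series were not used here. Python 3.11.15, pandas 2.3.3, numpy 2.4.6 and scipy 1.17.1 were used.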

Additional observations from a re-analysis of the deposited data

Results flagged for a closer look

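The TRBV12-1 share of 17.6% in lucOS sgp53 female replicate 2 stood far above the other libraries of its group, with a gap to the next library of 0.923 of the group's range against a Dixon critical value of 0.829 for 4 libraries. Of these 4, 2 came from 1 mouse, and in a single check chance alone marks about 1 in 20 such groups. The highest and lowest cell share, clonotype share and expanded share were checked for both V genes, and only this value passed. The share of clonotypes in the same library was 6.35%.

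Contigs that the comparisons did not use also named these V genes. In barcodes called as cells, 35 non-productive contigs named TRBV12-1 (6.35% of its contigs there) and 20 named TRBV12-2 (4.82%), against 679 non-productive beta contigs in all (7.87%). Barcodes not called as cells held 26 productive TRBV12-1 and 31 productive TRBV12-2 contigs, of 644 productive beta contigs. There are no control samples for these contigs, so the counts are given without a background level to set them against.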

How the results depend on the processing

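No pairing of mice across groups was possible because the replicate numbers are in sample order and pair nothing. The comparisons with the other T cells were paired within each mouse. Of 830 recomputed values, 662 kept their direction and side of the threshold (counts within 1.5 times), 89 lost a call, 3 gained one, 31 changed sign and 45 moved. The values that kept include runs without a mouse below the 5-cell minimum of a test, whose difference could not change. One such mouse, luc NICD female replicate 3, held 1 TRBV12-1 cell and 3 TRBV12-2 cells. Values are percentage points unless another unit is named, and the cause was not tested for any of them. Counting the joint entry changes which receptors are counted, since most of its CDR3 starts are those of TRBV13-2. Counting the joint entry as TRBV12-2, which adds 1406 cells to 382, gave a TRBV12-2 lucOS minus luc difference of 9.45, 3 called TRBJ genes, 2 called TRAV families, TRAV11 at 3.83, TRBJ2-1 at -2.02, TRAV7 at -1.97, TRAV14 at 1.34, TRAV1 at 0.26, an expanded share of 7.41 against the other T cells, a TRBV12-1 minus TRBV12-2 share of -15.2, TRAV14 pairing between constructs of 0.56 and an expanded gap between constructs of 26.3. Counting clonotypes once gave a TRBV12-2 interaction of -2.19, a male minus female TRBV12-2 difference of -0.15, 0 called TRBJ genes for either V gene, 1 called TRAV family for TRBV12-1, TRAV14 of TRBV12-1 at 1.45 and a TRBV12-1 minus TRBV12-2 share of -1.27. Without barcodes of several chains the male minus female TRBV12-2 difference was -0.035, and 1 TRBJ gene was called for TRBV12-1 and 0 for TRBV12-2. The TRBV12-2 TRBJ call also went to 0 at 3 UMIs, without small libraries and with 10 cells per mouse. The last also gave 3.14 for the expanded gap between constructs. CDR3 length over cells gave 0.32 bases for TRBV12-2. Leaving out the largest clones, an alternative chosen after seeing the data, gave -0.62 for TRBV12-1 between constructs. Leaving out each mouse gave an interaction of -6.10 to 0.068 for TRBV12-1 and -0.81 to 1.94 for TRBV12-2, and male minus female differences of -0.22 to 1.79 and -2.03 to 2.43. Called TRBJ genes numbered 1 to 5 for TRBV12-1 and 0 to 1 for TRBV12-2, and called TRAV families 0 to 4 and 0 to 3. TRBJ2-1 of TRBV12-2 ran from -0.26 to 4.72, TRAV13 of TRBV12-1 from -0.62 to 7.96, the TRBV12-2 expanded share from -25.4 to -17.6, the TRBV12-1 minus TRBV12-2 share from -0.50 to 1.10, their CDR3 length difference from -0.52 to 0.25 bases and the expanded gap between constructs from -7.77 to 2.07. Libraries with as few as 49 T cells limit what a share can show.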

Other observations

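Some large TRBV12-1 clones shared a feature of the joint that was noticed after their sequences had been seen, so no test was run. A proline codon followed by an arginine codon at the fifth and sixth codons of the CDR3 stood in 9 of 172 TRBV12-1 clonotypes of lucOS tumours (5.23%), in 5 of 8 mice, and in 0 of 90 of luc tumours. It stood in 3 of 319 TRBV12-2 clonotypes (0.94%) and in 47 of 4424 other clonotypes (1.06%). Among the 9 were the clones of 127, 17 and 14 cells, which use different TRBJ genes and whose arginine codons differ (cgc, agg and cgt in that order). Counting an arginine codon at either position, 5 of the 7 large TRBV12-1 clones had one, against 47 of 244 TRBV12-1 clonotypes of 1 cell (19.3%), 0 of 6 large TRBV12-2 clones and 19 of 127 large clones of other receptors. The clones of 127 and 14 cells also share the alpha V gene TRAV9D-3, which 8 TRBV12-2 cells carried too. The 7 large clones count 1 clone of the lucOS sgp53 mouse with 2 libraries in each of these libraries.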
